A study of Bos taurus with 90 samples.

Results

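The epithelium of the rumen, the large forestomach in which cows ferment their forage, was compared with that of the small intestine, sampled at the duodenum and the jejunum. Small RNA had been sequenced from 5 tissues of 18 mid-lactation Chinese Holstein dairy cows, and 54 of those 90 samples entered the comparison: all 18 labelled rumen, all 18 labelled duodenum and all 18 labelled jejunum. In each tissue, 6 samples came from cows fed alfalfa hay as forage, 6 from cows fed corn stover and 6 from cows fed rice straw. No label names a genetic change, and there was no untreated group outside these diets. The labels call all 54 samples epithelium, each sample is the RNA of a whole piece of tissue, and no label states how the epithelium was separated from the layers below it. The same cows gave all the tissues, but no label ties a sample to a cow, so p-values treat the 54 samples as independent.

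MiRNAs are short RNAs that are cut from hairpin precursors and lower the stability and translation of the mRNAs they pair with, and many of them are made chiefly in one kind of cell. The rumen is lined by a stratified squamous epithelium that absorbs short-chain fatty acids, whereas the small intestine is lined by a single layer of absorptive cells with scattered mucus-secreting and hormone-secreting cells over a wall rich in immune cells. MiR-205 and miR-31 are known from stratified epithelia such as skin, miR-192, miR-194 and miR-215 from the intestinal epithelium, and miR-375 from hormone-secreting cells.

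The deposited values were CPM, the reads of a miRNA divided by the reads mapped to all annotated miRNAs and scaled to a total of 1000000. Between 2337879 and 9024345 reads lay behind a rumen sample and between 3987988 and 15621501 behind a small intestine sample, so that 3 reads were worth 0.332 to 1.28 CPM in rumen and 0.192 to 0.752 CPM in small intestine. Of 368 miRNAs listed in any of the 3 tissues, 311 were listed in all 3 and were tested; miR-124a and miR-124b held equal values in every sample, as did miR-129 and miR-129-5p, so that the 311 names are 309 measurements. In a principal component analysis of these, the first component took 68.5% of the variance and put all 18 rumen samples (15.6 to 20.1) apart from all 36 small intestine samples (-10.7 to -7.63). The second component took 5.85%, and on it the 6 jejunum samples of cows fed corn stover (-10.0 to -4.08) lay apart from the other 30 small intestine samples (-2.06 to 4.71). On the same component, 4 of the 6 rumen samples of cows fed alfalfa hay (5.60 or more) lay apart from all the other rumen samples (-0.03 at most). The comparison of tissues was repeated without the jejunum of cows fed corn stover, and without all samples of cows fed alfalfa hay. The 4 rumen samples were not left out alone. Ratios of hairpin arms were fitted with all samples only. The test of the tissue difference by diet was run with all samples and with duodenum alone as the small intestine.

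Rumen and small intestine differed in most of the miRNAs tested. With limma on log2(CPM + 1), a Benjamini-Hochberg adjusted p under 0.05 and the mean of duodenum and jejunum as the small intestine, 247 of 311 miRNAs (79.4%) differed: 46.0% were higher in rumen and 104 (33.4%) were lower. Against duodenum alone 239 miRNAs differed (76.8%; 46.0% higher, 30.9% lower), and against jejunum alone 236 (75.9%; 44.1% higher, 31.8% lower). The rumen samples being shared by both comparisons, 131 miRNAs (42.1%) were higher in rumen both than in duodenum and than in jejunum, 86 (27.7%) were lower than in both, and 0 were higher than in one and lower than in the other (0.0%). For 33 miRNAs (10.6%) every rumen sample lay above every small intestine sample, and for 23 (7.4%) every rumen sample lay below. Without the jejunum of cows fed corn stover 250 miRNAs differed, 109 of them lower, and without the cows fed alfalfa hay the total was 231.

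The balance of rises and falls differed between scales, and a few miRNAs filled a large part of the intestinal libraries. MiR-192, miR-194 and miR-215 together took 0.26% to 0.456% of the reads of a rumen sample (median 0.316%), 23.2% to 41.1% of a duodenum sample (median 33.1%) and 14.4% to 30.5% of a jejunum sample (median 23.2%). Over all 311 miRNAs the median log2 difference was 0.15 on the deposited CPM. Upper-quartile scaling moved this median by -0.13, trimmed-mean (TMM) scaling by -0.19 and totals without those 3 miRNAs by -0.42. Of the miRNAs that passed the test, 57.9% were higher in rumen on the deposited CPM, 50.2% with upper-quartile scaling, 48.3% with TMM scaling and 37.1% with totals without those 3. Differences are given below on the deposited CPM, and directions that another scale ends or turns are named where they occur. Counts of list members on the deposited CPM stand against the shares of all 311 miRNAs on that scale, 46.0% higher and 33.4% lower. On each of the other scales more of all miRNAs tested were lower and fewer were higher. List counts on those scales therefore cannot be set against these shares.

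**Figure D1:**
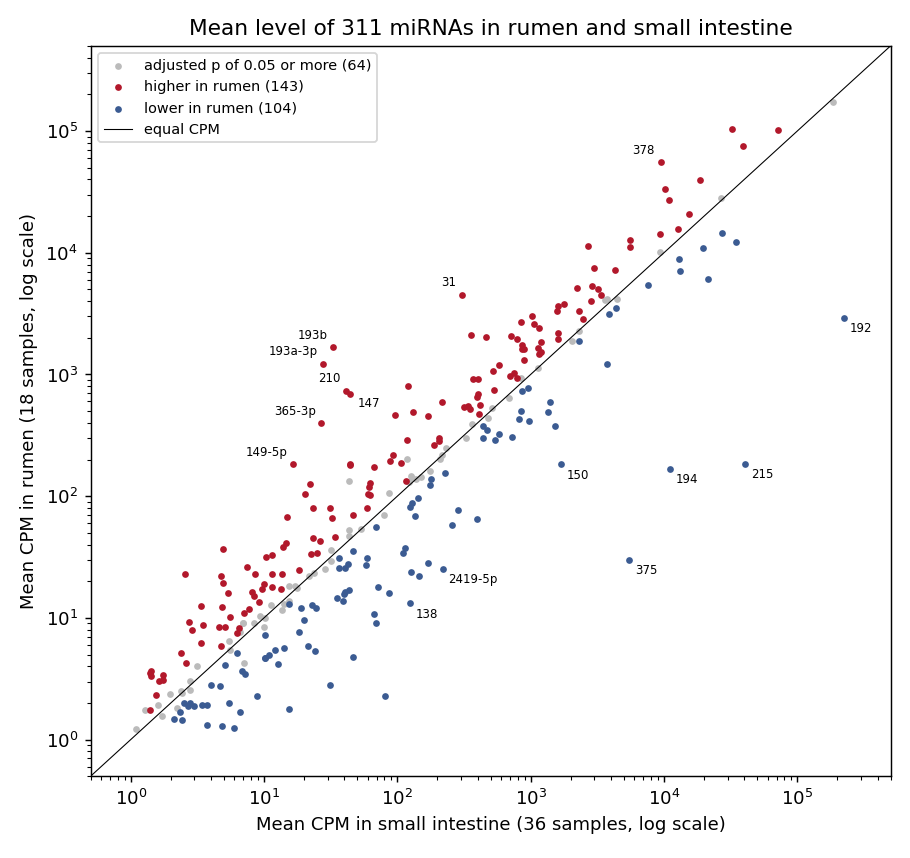
Mean CPM of each of the 311 miRNAs in the 36 small intestine samples (horizontal, log scale) against the mean in the 18 rumen samples (vertical, log scale), with the 247 that differed on the deposited CPM coloured by direction and the line marking equal CPM. The miRNAs with the largest changes among those of at least 100 CPM are labelled by number. MiR-193b and miR-193a-3p lie farthest above the line, and miR-215, miR-375, miR-192 and miR-194 farthest below it.

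Of the miRNAs known from stratified epithelium, miR-205 and miR-31 were far more abundant in rumen, and miR-203 was listed in none of the 3 tissues. MiR-205 held 23016 to 52132 CPM (median 32788) in rumen, the 7th highest mean of that tissue and 3.37% of its reads, against 0.099 to 5.07 CPM (median 1.74) in duodenum, where between 1 and 71 reads lay behind a value. In jejunum miR-205 was not listed, and all unlisted miRNAs together held between 44.9 and 440 CPM of a jejunum sample, so that miR-205 cannot have exceeded this. In all but jejunum samples 1, 2 and 6 on corn stover this total was at most 72.6 CPM. The groups did not overlap, and rumen exceeded duodenum by 13.71 on the log2(CPM + 1) scale (two-sided permutation test with 100000 resamples, p = 2e-05, the smallest these can give).

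MiR-31, which is abundant in keratinocytes and other squamous cells, held 2564 to 6836 CPM (median 4272) in rumen. In duodenum it held 104 to 484 CPM (median 347), and in jejunum 8.13 to 478 CPM (median 323.4). Every rumen sample lay above every intestinal one, with a log2 difference of 4.13 ± 0.30 (SE; limma, adjusted p = 5.64e-19).

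The miRNAs of the intestinal epithelium made up 3 of the 4 largest falls, and all 3 of their list passed the test, with a median log2 difference of -6.26 against 0.15 for all miRNAs tested. MiR-192 held 2350.2 to 3872 CPM (median 2759) in rumen, 193129 to 327244 CPM (median 259385) in duodenum and 119672 to 249455 CPM (median 192259.9) in jejunum, the highest mean of any miRNA over the 36 small intestine samples, although miR-143 lay higher in jejunum alone. MiR-194, whose hairpins lie beside those of miR-192 and miR-215, held 95.1 to 253 CPM (median 166) in rumen against 9581 to 14928 CPM (median 11810.4) in duodenum and 6785 to 19586 CPM (median 9213) in jejunum. MiR-215 held 38.4 to 481 CPM (median 151) in rumen, 21032 to 91487 CPM (median 55642) in duodenum and 9656 to 66978 CPM (median 25000.3) in jejunum. No rumen sample reached the lowest intestinal sample for any of the 3, and the intestinal mean was 77.4 times the rumen mean for miR-192, 65.9 times for miR-194 and 220.97 times for miR-215. On the log2 scale the differences were -6.26 ± 0.07, -6.03 ± 0.09 and -7.84 ± 0.22 (SE; limma, adjusted p = 6.94e-59, 1.83e-53 and 1.82e-38). MiR-192 and miR-215 share nearly all of their sequence, and reads could have been divided between them, so that their separate values are uncertain. In whole tissue pieces, fewer cells of a type and less RNA per cell cannot be told apart.

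MiR-375, which marks hormone-secreting cells of the gut and pancreas, was the remaining one of those 4. It held 6.84 to 105.8 CPM (median 20.2) in rumen, 4498 to 10852 CPM (median 6844) in duodenum and 2669 to 6948 CPM (median 3927) in jejunum, without overlap, and differed by -7.81 ± 0.19 on the log2 scale (limma, adjusted p = 2.41e-41). Of the 7 miRNAs listed for hormone-secreting and neural cells, 0 were higher in rumen, 5 were lower and 2 did not pass, with a median of -0.71. All 7 were lower under each of the other 3 scales, but more of all miRNAs tested were lower there too. Those scales moved the median of all miRNAs by -0.13 to -0.42, so the 2 added members do not strengthen the result. Counted once, miR-124a and miR-124b leave 6 measurements, 4 lower and 2 not past the test, with a median of -0.78. MiR-153, a neural miRNA, held 1.9 to 16.98 CPM (median 3.71) in rumen against 27.4 to 107 CPM (median 58.6) in duodenum and 23.8 to 46.05 CPM (median 31.9) in jejunum. MiR-7, also of neuroendocrine cells, differed by -0.84, and miR-9-5p of neurons by -0.28 (limma, adjusted p = 0.0626). MiR-138, which is known from neurons, was lower without overlap as well, at 2.23 to 27.98 CPM (median 11.4) in rumen, 69.6 to 218 CPM (median 115) in duodenum and 79.05 to 188.1 CPM (median 129) in jejunum.

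**Figure D2:**
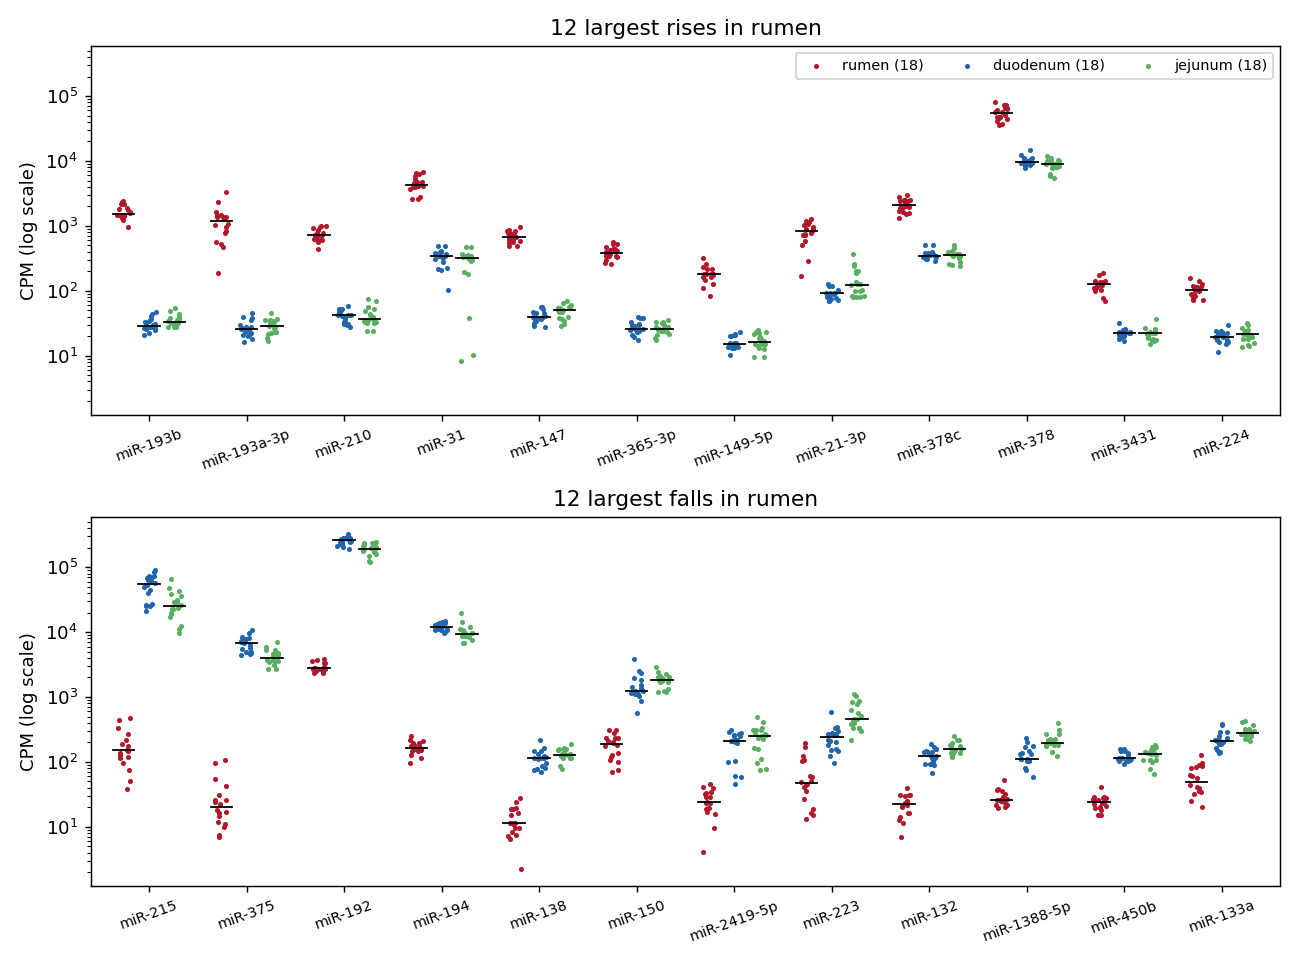
CPM in each sample (points, log scale) of the 12 miRNAs with the largest rise and the 12 with the largest fall in rumen among those of at least 100 CPM in rumen or small intestine and past the test in the same direction against both parts of the intestine, with 18 samples per tissue; bars are medians. Rumen points lie clear of both intestinal tissues for all but miR-21-3p in the upper panel and miR-223 in the lower one.

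Next to miR-205, the largest rises belonged to miR-193b and miR-193a-3p, which like miR-365-3p are known from the differentiation of brown fat and muscle. MiR-193b held 961 to 2379.6 CPM (median 1523) in rumen, 20.9 to 46.8 CPM (median 28.9) in duodenum and 27.1 to 54.4 CPM (median 33.5) in jejunum, a mean 50.3 times that of the small intestine (log2 5.60 ± 0.09, limma adjusted p = 2.64e-51). MiR-193a-3p held 189 to 3371 CPM (median 1170.2), 16.4 to 45.1 CPM (median 26.02) and 16.7 to 44.99 CPM (median 28.1) in the same order (log2 5.20 ± 0.17). MiR-365-3p, made from a hairpin next to that of miR-193b, held 263 to 562 CPM (median 378.9), 17.6 to 39.8 CPM (median 25.5) and 17.3 to 35.3 CPM (median 25.5) (log2 3.83 ± 0.09). All 4 tested members of this group rose with no overlap between rumen and intestinal samples, at a median of 4.51. The remaining member, miR-365-5p, was listed in rumen alone, at 1.18 to 9.68 CPM (median 4.25).

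Rises of like size concerned miR-210, which is induced by low oxygen, and miR-147, which is induced in inflamed tissue. MiR-210 held 447 to 1005 CPM (median 718) in rumen against 27.8 to 59.01 CPM (median 41.9) in duodenum and 24.2 to 74.9 CPM (median 36.1) in jejunum. MiR-147 held 489.7 to 956 CPM (median 662) in rumen against 27.2 to 56.3 CPM (median 38.7) and 28.4 to 69.6 CPM (median 50.6). Neither overlapped, and their log2 differences were 4.13 ± 0.10 and 3.94 ± 0.09 (limma, adjusted p = 5.22e-41 and 1.39e-42). Both strands of the hairpin of miR-21, a miRNA of proliferating and injured tissue, rose too: miR-21-5p by 0.93 ± 0.08 and miR-21-3p by 2.74 ± 0.17. MiR-21-3p held 167 to 1255 CPM (median 824) in rumen and 69.3 to 128 CPM (median 90.7) in duodenum but up to 364 CPM in jejunum, above the lowest rumen value of 167 CPM.

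MiR-378, encoded within a gene for a regulator of mitochondrial energy metabolism, was among the most abundant miRNAs of rumen. It held 36043 to 81148 CPM (median 54125) in rumen, 7753 to 14531 CPM (median 9792) in duodenum and 5504 to 12054 CPM (median 8984) in jejunum (log2 2.54 ± 0.09, limma adjusted p = 1.11e-34). All 3 listed members of the family rose with no overlap, miR-378c by 2.55 ± 0.08 and miR-378b by 2.03 ± 0.10, although their near-identical sequences can share reads. MiR-149-5p (3.36 ± 0.11), miR-224 (2.30 ± 0.10) and the cattle-annotated miR-3431 (2.44 ± 0.09) also rose without overlap. The hairpins of miR-224, miR-3431 and miR-452 neighbour each other in the RefSeq annotation, and miR-452 differed by 2.02 ± 0.08.

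The let-7 family and the miR-23, miR-27 and miR-24 clusters rose by smaller amounts. Of the 10 members of the let-7 family, which restrains growth programmes of immature cells, 9 were higher and 1, let-7i, did not pass (0.16), with a median of 0.98; with totals without miR-192, miR-194 and miR-215, 7 were higher and 1, let-7i, was lower, and let-7f passed on the deposited CPM alone. Let-7b held 4608 to 9792 CPM (median 7667) in rumen against 1928 to 3694 CPM (median 2586) in duodenum and 2723 to 4187 CPM (median 3198) in jejunum, without overlap. All 7 miRNAs of the miR-23, miR-27 and miR-24 clusters rose under each of the 4 scales, with a median of 1.55, and 4 of them did not overlap. MiR-27b, the most abundant of them, held 81998 to 137532 CPM (median 102479) in rumen against 25501 to 35011 CPM (median 32605) and 27878 to 42199.8 CPM (median 33509.8), and miR-27a-3p, whose sequence it nearly shares, held 7870.1 to 16588 CPM (median 10784) against 2094 to 3355 CPM (median 2538) and 2338 to 3465 CPM (median 2851). The log2 differences of this pair were 1.66 ± 0.05 and 2.07 ± 0.06 (limma, adjusted p = 5.52e-37 and 3.32e-37).

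The miR-200 family, which holds cells in the epithelial state, was present in all 3 tissues and all 5 members were higher in rumen, with a median of 1.07, although miR-200b did not pass with upper-quartile or TMM scaling and was lower with totals without miR-192, miR-194 and miR-215. Summed over the family, rumen samples held a median of 18451 CPM, duodenum samples 11082 CPM and jejunum samples 7725 CPM. MiR-429 held 1549.8 to 3627 CPM (median 2557) in rumen against 794 to 1674 CPM (median 1027) in duodenum and 667 to 1759 CPM (median 928) in jejunum, and miR-200a held 2461 to 8327 CPM (median 3714) against 1319.7 to 3187 CPM (median 2134) and 722 to 2040.4 CPM (median 1411). Tissue ranges overlapped for each of the 5. All 3 members of the miR-183 cluster, known from sensory epithelia, were higher under each scale (median 1.68). MiR-183 held 261 to 1683 CPM (median 343) in rumen against 41.3 to 173 CPM (median 95.8) and 46.9 to 184 CPM (median 81.4), with no overlap.

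The miR-30 family rose in 6 of 7 members (median 0.43), with 3 higher and 2 lower when totals left out miR-192, miR-194 and miR-215. Its rise was uneven: miR-30a-5p held 25479 to 46225 CPM (median 32638) in rumen against 6783 to 11071 CPM (median 9579.6) in duodenum and 5750.0 to 16473 CPM (median 11254) in jejunum, whereas miR-30d differed by 0.12 and did not pass (limma, adjusted p = 0.107). In the miR-99, miR-100 and miR-125 group all 6 members were higher (median 0.73), but 4 with TMM scaling and 1 with totals without those 3 miRNAs, and the group is returned to under diet below. MiR-221 and miR-222, a pair of one hairpin cluster, were higher by 0.42 and 0.46, and neither passed on the latter scale, where both differences were slightly negative.

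These differences reordered the most abundant miRNAs. Among the 311, the 10 highest means in rumen belonged to miR-143, miR-27b, miR-26a, miR-21-5p, miR-378, miR-22-3p, miR-30a-5p, miR-10b, let-7a-5p and miR-126-5p. In small intestine they belonged to miR-192, miR-143, miR-26a, miR-215, miR-21-5p, miR-148a, miR-27b, miR-10a, miR-10b and miR-142-5p. MiR-22-3p, a widely expressed miRNA, held 30484 to 62466 CPM (median 37469.8) in rumen against 12036 to 24813 CPM (median 17734) in duodenum and 11279.6 to 28581 CPM (median 18794) in jejunum, without overlap. The 10 most abundant listed miRNAs of each sample took 67.5% ± 1.6 of its reads in the 18 rumen samples and 71.4% ± 2.5 in the 36 of small intestine (SD), 3.86 percentage points less in rumen (two-sided permutation test with 100000 resamples, p = 2e-05, the smallest these can give). The miRNAs higher in rumen summed to 64.3% ± 3.6 of rumen reads and 30.3% ± 2.4 of intestinal reads, and the 104 lower ones to 8.64% ± 0.71 and 45.2% ± 5.8 (SD); since the test chose these sets, the sums only describe them.

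MiRNAs of immune cells were lower in rumen. Of the 8 listed, 7 fell and 1, miR-146b, did not pass (0.13), with a median of -1.73 against 0.15 for all miRNAs tested, and the counts were equal under each of the 4 scales. MiR-150, which is made by mature lymphocytes, held 69.5 to 315 CPM (median 189) in rumen, 576 to 3897 CPM (median 1260.0) in duodenum and 1182 to 2953 CPM (median 1835) in jejunum, without overlap (log2 -3.23 ± 0.16, limma adjusted p = 1.3e-26). MiR-142-5p, found across blood cells, held 2554 to 8262 CPM (median 6274), 13726 to 33547 CPM (median 20244) and 14788 to 26781 CPM (median 23594), again without overlap. MiR-223, of neutrophils and other myeloid cells, held 13.3 to 195.9 CPM (median 46.7), 96.4 to 579 CPM (median 241) and 219.7 to 1119 CPM (median 456), and here the rumen range reached into that of duodenum but not that of jejunum (log2 -2.76 ± 0.23). MiR-146a, induced by inflammatory signals, differed by -1.61 ± 0.15 and miR-155, of activated lymphocytes, by -0.90 ± 0.14. Summed, the 8 held 9693 CPM in the median rumen sample against 29699 CPM in duodenum and 34296 CPM in jejunum. How far the immune cells of the tissue pieces bear on other differences was not tested.

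MiRNAs of other cell types were measured in the same tissue pieces. MiR-143 and miR-145, known from smooth muscle and connective tissue, were abundant on both sides: miR-143 held 115693 to 241395 CPM (median 179299.9) in rumen, 104281 to 212623 CPM (median 154615) in duodenum and 143429 to 294801 CPM (median 204146) in jejunum. Neither differed past the threshold on the deposited CPM (-0.08 ± 0.08 and -0.10 ± 0.13; limma, adjusted p = 0.369 and 0.481), while miR-143 was lower in rumen on each of the other 3 scales and miR-145 with TMM scaling and with totals without miR-192, miR-194 and miR-215. Both arms of miR-126, of endothelial cells, were higher (0.72 and 0.46), and the 5p arm did not pass with totals without those 3. Of the 6 fibroblast miRNAs, 1 (miR-140, 0.53) was higher, though not with totals without those 3, 2 (miR-214, -0.63, and miR-199a-3p, -0.31) were lower and 3 did not pass, at a median of 0.03 that was negative on each other scale. Of the 3 red blood cell miRNAs, miR-486 was lower (-0.67) and miR-144 and miR-451 did not pass (-0.05 and 0.47). MiR-122, the defining miRNA of hepatocytes, was listed in none of the 3 tissues.

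Of the 4 striated muscle miRNAs, 3 were lower and 1, miR-499, was higher (0.61, not past the test with totals without miR-192, miR-194 and miR-215). MiR-133a held 20.2 to 125.8 CPM (median 49.8) in rumen against 135.7 to 388 CPM (median 213) in duodenum and 211 to 431.9 CPM (median 275) in jejunum, without overlap (log2 -2.25 ± 0.14), and miR-1, whose hairpin neighbours it, differed by -2.74 ± 0.18. Their part in the other differences was not tested.

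Further groups fell together. The imprinted DLK1-DIO3 region holds a long array of miRNA hairpins expressed from the maternal copy. Of its 24 tested miRNAs, 18 were lower, 6 did not pass and 0 were higher, with a median of -0.61. Of all 311 miRNAs 33.4% were lower and 46.0% higher on the deposited CPM. On each other scale 20 or more of the 24 were lower, but more of all miRNAs tested were lower there too. Those scales moved the median of all miRNAs by -0.13 to -0.42, so the added members do not strengthen the result. Sample ranges overlapped for each of the 24. MiR-410 differed by -1.54 ± 0.19, miR-379 by -1.45 ± 0.26 and miR-411a by -1.21 ± 0.23, whereas miR-127, the most abundant of those not past the test, differed by -0.46 ± 0.22 (limma, adjusted p = 0.053). MiR-411a held 109 to 1375 CPM (median 296) in rumen against 387 to 1482 CPM (median 761) in duodenum and 372 to 1429.9 CPM (median 832) in jejunum, so that the highest rumen sample lay within the intestinal range.

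All 3 tested members of the miR-424 and miR-450 cluster were lower under every scale and did not overlap. MiR-450a held 6.18 to 12.9 CPM (median 9.38) in rumen against 48.4 to 105 CPM (median 73.5) and 25.7 to 93.3 CPM (median 60.8), miR-450b held 15.2 to 40.6 CPM (median 23.7) against 92.04 to 157 CPM (median 115) and 64.96 to 181.7 CPM (median 132.6), and miR-424-5p held 6.08 to 28.7 CPM (median 17.4) against 41.7 to 116 CPM (median 76.4) and 39.3 to 92.1 CPM (median 69.9). The other 3 listed members, miR-424-3p, miR-503-3p and miR-542-5p, were listed in duodenum and jejunum and not in rumen. MiR-132, which is induced by cAMP signals in neurons, held 6.84 to 39.1 CPM (median 22.5) in rumen against 67.02 to 187 CPM (median 123) in duodenum and 117 to 255 CPM (median 159.5) in jejunum, and its cluster partner miR-212 was again listed in the intestine alone.

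Among more abundant families, all 4 members of the miR-29 family, which represses collagens, were lower (median -0.69), from -0.30 ± 0.09 for miR-29a to -1.19 ± 0.12 for miR-29c. MiR-148a, abundant in digestive epithelia, held 6891 to 15478 CPM (median 12844) in rumen against 25217 to 48811 CPM (median 39657) and 18173 to 48041 CPM (median 31829), without overlap (log2 -1.49 ± 0.09), while miR-148b of the same family was slightly higher (0.25), not past the test with upper-quartile or TMM scaling and lower with totals without miR-192, miR-194 and miR-215. Of the miR-181 family, 3 of 4 were lower, led by miR-181a (-0.89 ± 0.07). The cattle-annotated miR-2419-5p (-3.01 ± 0.23) and miR-1388-5p (-2.47 ± 0.12) fell without overlap.

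**Figure D3:**
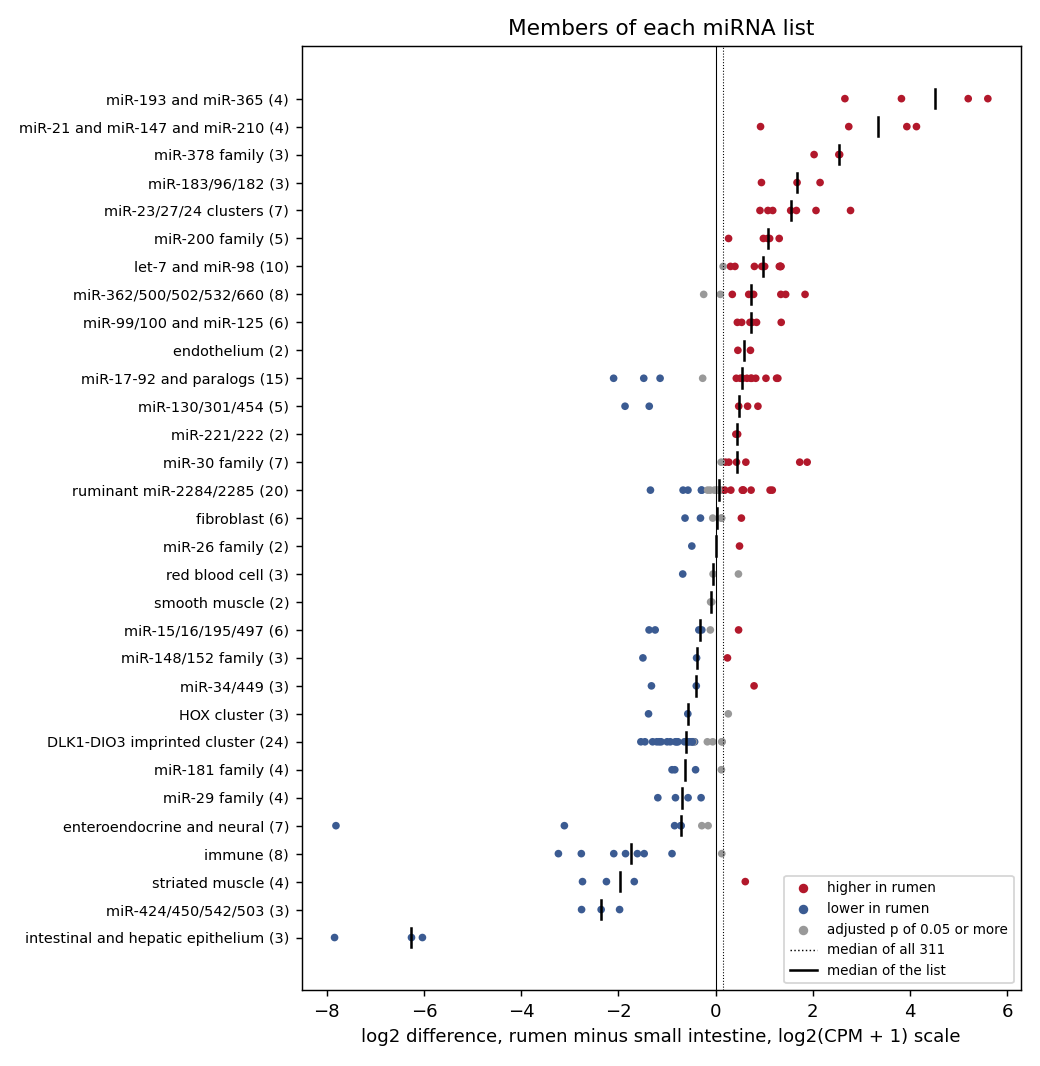
Log2 difference of each member (points) of each miRNA list with at least 2 members tested, rumen minus small intestine on the log2(CPM + 1) scale of the deposited CPM, with the number tested in brackets; long ticks are list medians and the dotted line is the median of all 311 (0.15). The miR-193 and miR-365 list (median 4.51) and the intestinal list (median -6.26) lie at the ends; the medians of the fibroblast, ruminant, miR-26, miR-30 and miR-221 with miR-222 lists turn sign or reach 0 on at least 1 other scale.

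Some families were divided. Of 15 miRNAs of the miR-17-92 cluster and its paralogs, which accompany cell proliferation, 11 were higher, 3 were lower and 1 did not pass. The 7 products of the miR-17-92 hairpins were all higher, from 0.55 for miR-17-5p to 1.28 for miR-19a, and so were the 3 of the miR-106b and miR-25 cluster. Those of the paralogous miR-106a and miR-363 cluster that no other hairpin makes went the other way: miR-363 differed by -2.10 ± 0.14, miR-106a by -1.48 ± 0.16 and miR-20b by -1.14 ± 0.14, and miR-18b did not pass (-0.26). MiR-363 held 0.886 to 11.9 CPM (median 4.86) in rumen against 12.6 to 52.01 CPM (median 19.5) in duodenum and 20.4 to 31.9 CPM (median 27.4) in jejunum, without overlap. With totals without miR-192, miR-194 and miR-215, 6 of the 15 were higher and 4 lower.

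The miR-130 family was divided by hairpin cluster in the same way, with miR-301a (0.66) and its neighbour miR-454 (0.87) higher, and miR-301b (-1.36) and its neighbour miR-130b (-1.86) lower. MiR-130b held 28.8 to 141.2 CPM (median 73.7) in rumen, 228 to 439.5 CPM (median 335) in duodenum and 75.7 to 353 CPM (median 244) in jejunum, whereas miR-130a was higher in rumen (0.48), though not past the test with totals without miR-192, miR-194 and miR-215. MiR-26a (0.49 ± 0.09) was higher and miR-26b (-0.49 ± 0.07) lower; miR-26a did not pass with the latter totals. In the miR-15 and miR-16 family, miR-195 (-1.24) and its neighbour miR-497 (-1.37) were lower, and miR-15b (0.47) was higher except with totals without those 3. In the miR-34 family, miR-34a, a target of p53, was higher (0.79) and miR-34c (-1.32) and miR-449a (-0.40) were lower.

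Hairpins that lie together mostly went together. Hairpins of 309 of the 311 miRNAs were found in the RefSeq table of the assembly ARS-UCD2.0, where those within 10000 bases of each other formed 45 clusters. In 37 of these at least 2 members passed the test, and in 36 of the 37 all such members went one way; the exception was the cluster of miR-106a and miR-363, which also holds copies of miR-19b and miR-92a. Some miRNAs, such as miR-181a and miR-181b, have hairpins in several clusters and were counted in each. Both arms of a hairpin were counted as members. Of all miRNAs that passed the test 57.9% were higher in rumen, so that unlinked miRNAs also often go the same way. How often they do was not tested. Of the 8 miRNAs of the miR-362, miR-532 and miR-660 cluster, 6 were higher, led by miR-502b (1.84 ± 0.10) and miR-532 (1.44 ± 0.10); miR-660 (0.34) did not pass with totals without miR-192, miR-194 and miR-215. Of the 20 tested members of the ruminant miR-2284 and miR-2285 family, 8 were higher, 5 were lower and 7 did not pass, and the balance turned with TMM scaling, to 6 higher and 9 lower. On the deposited CPM these counts were near the shares of all 311 miRNAs, 46.0% higher and 33.4% lower, and do not set the family apart.

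A hairpin can give a mature miRNA from each of its arms, and the library total cancels from the ratio of the 5p to the 3p arm except through the 1 CPM added to each, which weighs on arms of few CPM. Of 24 hairpins with both arms listed, 17 had a weaker arm of at least 10 CPM in rumen or in small intestine and were tested, and the ratio differed in 12 (70.6%), higher in rumen for 3 (17.6%) and lower for 9 (52.9%). In 15 of them the weaker arm reached 10 CPM on both sides, and of these 10 differed (66.7%), 2 higher in rumen (13.3%) and 8 lower (53.3%). Among these 15 the ratio of miR-21 fell most: log2 of the 5p over the 3p arm was 6.65 ± 0.46 in the 18 rumen samples and 8.46 ± 0.70 in the 36 of small intestine (SD), a difference of -1.82 ± 0.16 (SE; limma, adjusted p = 7.04e-16). The ratio also fell for miR-345 (-1.37 ± 0.13), miR-423 (-1.11 ± 0.10) and miR-22 (-0.72 ± 0.11). The 6 jejunum samples on corn stover lay within the rumen range for miR-21, miR-345 and miR-22. For miR-21 they held 6.74 to 7.25, against 6.23 to 7.92 in rumen and 7.64 to 9.07 in the rest of jejunum. For miR-423 they held -1.18 to -0.71, against -1.65 to -0.87 in rumen. No arm ratio was refitted without these samples. The ratio was higher in rumen for miR-199a (0.43 ± 0.10) and miR-142 (0.24 ± 0.07). The other pairs, miR-193a and miR-27a, entered through their rumen level alone, so their ratios are given as values. The 5p arm of miR-193a had a mean of 37.1 CPM in rumen and 4.88 CPM in small intestine, and the 3p arm 1226 CPM and 27.9 CPM, with a log2 difference of the ratio of -2.54 that was -2.97 with 5 CPM added and -2.36 with 0.1 CPM. For miR-27a, whose 5p arm had a mean of 23.1 CPM in rumen and 2.55 CPM in small intestine, the difference was 0.71 with 1 CPM added, 1.12 with 0.1 CPM and -0.19 with 5 CPM, so that its direction depends on this choice. In all 13 pairs in which both arms passed the test on their own, the arms went the same way.

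**Figure D4:**
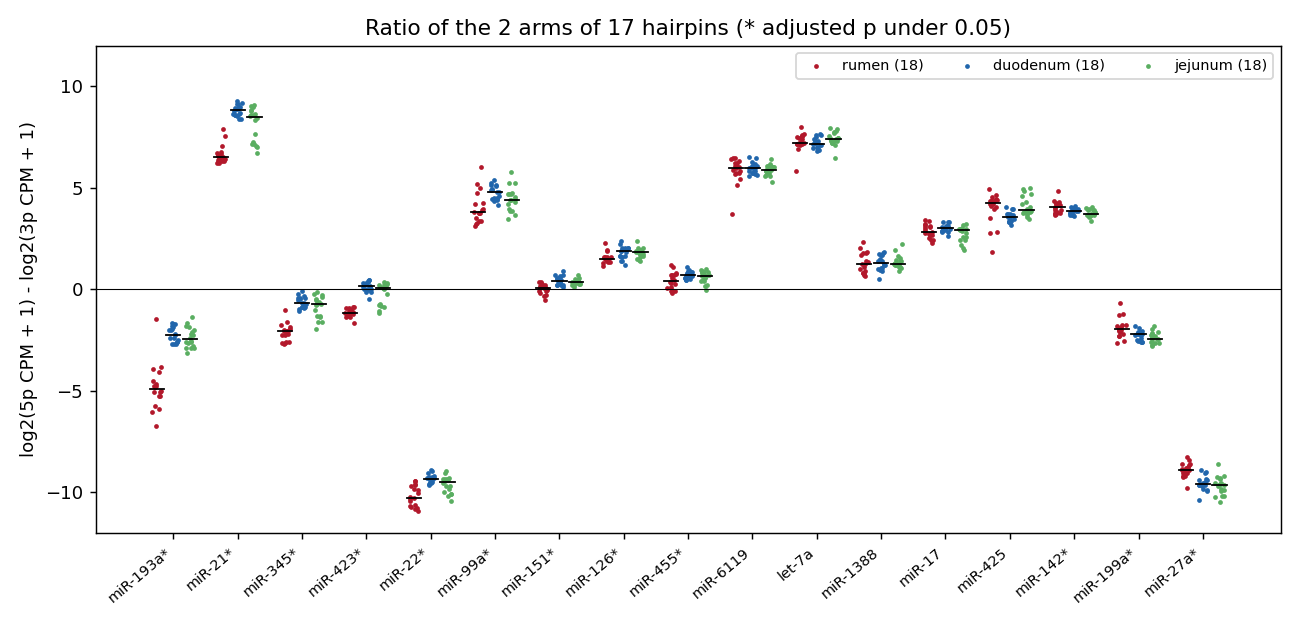
Difference between the log2(CPM + 1) of the 5p and 3p arms of 17 hairpins in each sample (points), 18 samples per tissue, with medians as bars and a star where rumen and small intestine differed (adjusted p under 0.05). The rumen points of miR-193a, miR-21, miR-345 and miR-423 centre below those of both intestinal tissues. For miR-21, miR-345 and miR-423 the jejunum samples on corn stover lie within the rumen range or reach into it.

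MiRNAs of the HOX gene clusters, which are expressed by position along the body, depended on which part of the intestine was compared. MiR-10a held 5979 to 25870.0 CPM (median 13818) in rumen, 3468 to 26674 CPM (median 11782) in duodenum and 26635 to 95217 CPM (median 30863) in jejunum: it differed by 0.28 from duodenum (limma, adjusted p = 0.263) and by -1.42 from jejunum (adjusted p = 1.56e-07). MiR-196a held 0.682 to 5.17 CPM (median 2.86), 0.384 to 12.5 CPM (median 2.09) and 4.21 to 324 CPM (median 14.97), and differed by -0.06 from duodenum (limma, adjusted p = 0.891) and by -2.70 from jejunum (adjusted p = 5.17e-09). Against the mean of both, miR-10a differed by -0.57 ± 0.20 and miR-196a by -1.38 ± 0.33, and without the jejunum of cows fed corn stover by -0.46 and -0.97. MiR-10a was no longer past the test without all the cows fed corn stover (-0.36, limma adjusted p = 0.113). Jejunum samples 1, 2 and 6 on corn stover held 83090 to 95217 CPM of miR-10a and 197 to 324 CPM of miR-196a. The other jejunum samples held at most 47729 CPM and 27.7 CPM. MiR-10b held 16477 to 42449 CPM (median 29106) in rumen, 9477 to 25804 CPM (median 15805) in duodenum and 16479.9 to 75615 CPM (median 26951) in jejunum and differed by 0.80 and -0.28.

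Beyond miR-205, few miRNAs unlisted on one side reached more than a few CPM. Every miRNA a tissue listed had more than 1 CPM in at least 9 of its 18 samples, and an unlisted miRNA has no value and cannot be given a fold change. Rumen alone listed 24 miRNAs, which together held 33.6 to 55.1 CPM of a rumen sample. MiR-365-5p, named above, was the highest of these, followed by miR-615 of a HOX cluster at 0.665 to 4.85 CPM (median 2.08), and by the cattle-annotated miR-2474 at 0.455 to 6.15 CPM (median 1.99) and miR-2284n at 0.416 to 5.58 CPM (median 1.91). Duodenum and jejunum both listed 20 miRNAs that rumen did not, with sums of 34.1 to 63.6 CPM and 26.002 to 54.6 CPM. Highest among them were miR-212, at 3.76 to 10.7 CPM (median 4.93) in duodenum and 2.41 to 10.3 CPM (median 6.57) in jejunum, miR-885, at 1.03 to 7.01 CPM (median 4.43) and 1.6 to 9.55 CPM (median 5.03), and miR-424-3p, at 2.91 to 7.68 CPM (median 4.62) and 0.809 to 8.94 CPM (median 3.93). MiR-1247-5p was listed in rumen, at 0.675 to 15.5 CPM (median 5.69), and duodenum, at 0.396 to 6.4 CPM (median 1.35), and miR-2885 in rumen, at 0 to 4.02 CPM (median 1.75), and jejunum, at 0.774 to 21.1 CPM (median 4).

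Within each diet the tissues were compared over 6 rumen and 12 small intestine samples. In cows fed alfalfa hay 213 miRNAs differed (68.5%), on corn stover 224 (72.0%) and on rice straw 211 (67.8%). In all 3 diets 101 were higher and 64 lower, and 0 passed the test in different directions. The test of whether the tissue difference itself varied with diet found 22 of 311 miRNAs (7.07%), and 77 at an unadjusted p under 0.05. With duodenum alone as the small intestine it found 4: miR-99b, miR-100, miR-1271 and miR-454.

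MiR-99b, miR-100 and miR-1271 led that test (limma, adjusted p = 0.00396, 0.0059 and 0.00618). MiR-99b, which is made with let-7e and miR-125a from neighbouring hairpins, held 1609.7 to 14009 CPM in rumen on alfalfa hay, 1393 to 2401 CPM on corn stover and 1167 to 1815 CPM on rice straw. In jejunum it held 1451 to 3520.3 CPM, 444 to 792 CPM and 1519 to 2249.6 CPM. The difference between rumen and small intestine was 1.71 ± 0.27 on alfalfa hay, 0.73 ± 0.27 on corn stover and -0.32 ± 0.27 on rice straw. Among the 9 sets of samples by tissue and diet, 4 of the 6 rumen samples on alfalfa hay lay above all the other samples, and all 6 jejunum samples on corn stover lay lowest.

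MiR-100 held 708 to 9339 CPM in rumen on alfalfa hay, 502.6 to 948 CPM on corn stover and 592 to 972 CPM on rice straw, with log2 differences from small intestine of 2.01 ± 0.31, 0.70 ± 0.31 and -0.17 ± 0.31. MiR-1271, which shares its seed with miR-96, held 15.8 to 759 CPM, 19.1 to 26.9 CPM and 12.4 to 23.3 CPM in rumen and differed by 1.69 ± 0.43, 0.00 ± 0.43 and -1.24 ± 0.43. Over all diets miR-1271 did not pass (0.15 ± 0.38), and without the cows fed alfalfa hay its difference was -0.62. MiR-99b differed by 0.71 ± 0.24 over all diets, by 0.21 without the cows fed alfalfa hay (limma, adjusted p = 0.297) and by 0.44 without the jejunum of cows fed corn stover (adjusted p = 0.0715). For miR-100 these values were 0.84 ± 0.27, 0.26 (limma, adjusted p = 0.209) and 0.59 (adjusted p = 0.0389), so that neither rise passed without the alfalfa hay samples. MiR-125a of the same group was also among the 22 (limma F test, adjusted p = 0.03035). It differed by 0.87 ± 0.19 on alfalfa hay, 0.60 ± 0.19 on corn stover and -0.13 ± 0.19 on rice straw. With duodenum alone it did not pass (adjusted p = 0.144).

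For miR-326 and miR-874, next in that test (limma, adjusted p = 0.00939 for both), the 4 rumen samples on alfalfa hay that lay apart on the second component were lowest of all rumen samples instead. In them miR-874 held 2.44 to 9.19 CPM, against 28.4 and 37.6 CPM in the other rumen samples on alfalfa hay. MiR-874 held 2.44 to 37.6 CPM in rumen on alfalfa hay against 15.4 to 36.4 CPM on corn stover and 22.5 to 46.01 CPM on rice straw, and differed from small intestine by -1.22 ± 0.26, 0.16 ± 0.26 and 0.33 ± 0.26. MiR-326 differed by -0.32 ± 0.19, 0.50 ± 0.19 and 0.90 ± 0.19. Of the 8 immune cell miRNAs 4 were among the 22: miR-223, miR-146a, miR-142-3p and miR-155 were each lower in rumen by more on alfalfa hay (-3.86, -2.25, -2.67 and -1.50) than on corn stover (-2.74, -1.04, -1.91 and -0.68) or rice straw (-1.69, -1.53, -1.70 and -0.50). With duodenum alone these 4 did not pass, and the adjusted p ranged from 0.123 to 0.291.

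**Figure D5:**
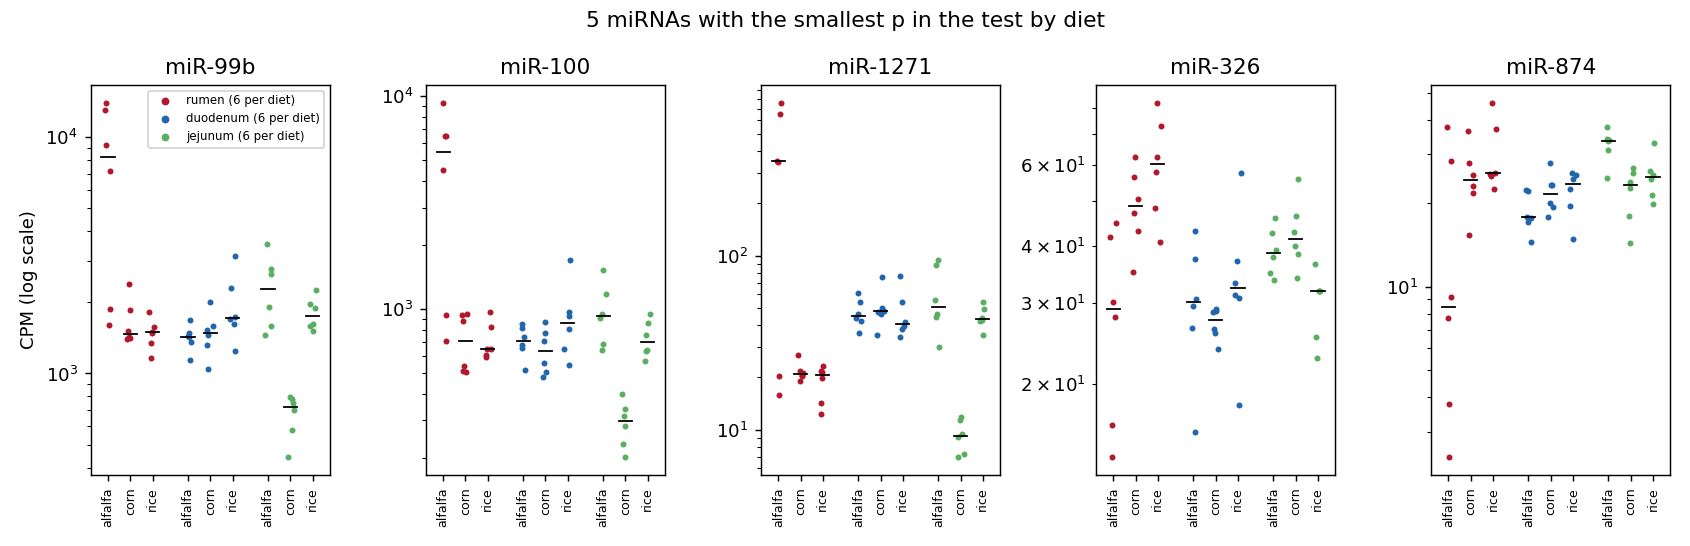
CPM in each sample (points, log scale; 6 per tissue and diet; bars are medians) of the 5 miRNAs with the smallest p in the test of the tissue difference by diet. For miR-99b, miR-100 and miR-1271, 4 rumen samples on alfalfa hay lie above all other samples and the 6 jejunum samples on corn stover lie lowest; for miR-326 and miR-874 rumen samples on alfalfa hay reach the lowest values.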

How the data were processed

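Small RNA libraries of the 54 rumen, duodenum and jejunum samples were made with the TruSeq Small RNA kit and sequenced on an Illumina HiSeq system. Per the methods, the authors filtered the reads with CASAVA 1.8, aligned those longer than 15 nt to bovine precursors of miRBase (version 22) with sRNAbench, and deposited CPM values, the reads of each miRNA over the reads mapped to all annotated miRNAs; the text of the study calls the files raw counts, but the values are not whole numbers and 2 column headers say CPM. The alignment allowed several mappings per read, so near-identical family members can share reads, and ligation bias limits comparison of levels between miRNAs.

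All 18270 values were whole multiples (within 0.05 reads) of the value of 1 read, and reads and totals were recovered from these steps; totals set the precision, and floors of 3 reads cover counting error only. Groups, diets and replicate numbers came from the labels, which give no batch or date. MiRNAs listed in all 3 tissues were compared with limma 3.58.1 (R 4.3.3; lmFit, and eBayes with a trend) on log2(CPM + 1), as rumen minus the mean of duodenum and jejunum, with Benjamini-Hochberg adjustment over all 311 and a threshold of 0.05; all 311 passed the filter of more than 1 CPM in at least 10 samples of a tissue. Arm ratios used the same fit, the test by diet an F test of tissue by diet, and single values 100000 permutations (scipy 1.17.1). On simulated data 59 of 60 miRNAs changed by 1 on the log2 scale were recovered in the tissue comparison, with 0 false calls, and 46 in the test by diet, with 1. The simulated samples were drawn independently, so these counts do not cover cows shared between tissues. The values were drawn on the log2 scale without a library total, with only 60 of the 311 miRNAs changed. They therefore do not cover the choice of scale. P-values measure the spread between these samples.

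MiRNAs named are the 12 largest rises and falls among those of at least 100 CPM, the 10 most abundant per side and up to 4 members of each list. Up to 8 of the highest unlisted on one side and up to 5 arm ratios with the largest change per direction are named too. So are the 5 miRNAs with the smallest p in the test by diet. Others are named as the remaining members of a count. The members, lists and rules were chosen with earlier results of these data known. Alternatives covered scaling, pseudocount, filters, edgeR 4.0.16 on recovered reads, thinning, diet, a replicate block and samples left out. Sums by seed were not made.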

Additional observations from a re-analysis of the deposited data

Results flagged for a closer look

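Among the 12 largest rises and falls, 216 groups of 6 samples were examined for a sample far from the other 5, and 11 held one; chance gives about 1 in 20. MiR-375 stood at 97.51 CPM in 1 rumen sample on corn stover, above the other 5. MiR-2419-5p stood low in the samples numbered 2 of 3 groups, at 45.92 CPM in duodenum on corn stover, 102.5 CPM in duodenum on rice straw and 4.137 CPM in rumen on rice straw. Single low values were those of miR-149-5p in rumen on alfalfa hay (81.75 CPM), miR-193a-3p in duodenum on corn stover (16.42 CPM), miR-210 in jejunum on alfalfa hay (24.32 CPM) and miR-31 in duodenum on corn stover (210.2 CPM). Single high values were those of miR-193b in rumen on rice straw (2380 CPM), miR-150 in duodenum on alfalfa hay (1979 CPM) and miR-1388-5p in jejunum on corn stover (399.3 CPM).

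The difference between rumen and small intestine itself varied with diet for miR-99b, miR-100, miR-1271, miR-326 and miR-874 (limma F test, adjusted p = 0.00396, 0.0059, 0.00618, 0.00939 and 0.00939). With duodenum alone as the small intestine the adjusted p was 0.0169 for miR-99b, 0.0274 for miR-100, 0.0467 for miR-1271, 0.204 for miR-326 and 0.313 for miR-874.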

How the results depend on the processing

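The 247 differences between rumen and small intestine became 255 with upper-quartile scaling, 259 with TMM scaling, 257 with edgeR on the recovered reads (131 of them higher; 28 in the test by diet), 239 of 310 after thinning to the smallest total, 81.4% of 237 with a mean of at least 10 CPM, 247 and 244 with pseudocounts of 0.1 and 5 CPM, 250 with diet as a covariate, 231, 236 and 235 without each diet in turn, and 250 without the jejunum of cows fed corn stover. No single replicate was left out, since each group holds 6. With totals without miR-192, miR-194 and miR-215, the number higher fell to 92 against small intestine and 76 against duodenum, and the number lower rose to 162 against duodenum. This scale, the exclusion of the corn stover jejunum and the test by diet on duodenum alone (4) were added after seeing the data. Arm ratios differed in 7 when the weaker arm had at least 50 CPM and in 10 when it had at least 10 CPM on both sides (also added after seeing the data), fewer pairs being tested; that of miR-27a changed sign with 5 CPM added (-0.1865). Of 105 named miRNAs, 78 kept their direction and side of the threshold in every setting; of 1565 values, 1490 did, 26 were no longer past the threshold, 33 newly were and 16 changed sign. With the totals without those 3 the sign changed for miR-1271 (-0.306), miR-148b (-0.2228), miR-10b (-0.2065), let-7f (-0.1609), miR-660 (-0.1237), miR-326 (-0.097), miR-221 (-0.0496), miR-125a (-0.0198), miR-222 (-0.0131) and miR-126-5p (-0.0093). It also changed for miR-1271 with TMM scaling (-0.0504), without the cows fed alfalfa hay (-0.6208) and without the corn stover jejunum (-0.2353), for miR-874 without alfalfa hay (0.2444), for miR-143 without corn stover (0.0063) and for miR-10b with edgeR (-0.0082). The cause was not tested. With a replicate block (diet and replicate number) 251 differed, 23 in the test by diet and 12 in arm ratios; the numbers were not shown to pair all samples, since same-numbered rumen and duodenum samples correlated by 0.02 on average (5 of 18 over 0.1) and rumen and jejunum by 0.05 (9 of 18), with 2 and 5 of 18 correlating best with their own number, while duodenum and jejunum correlated by 0.22 (13 of 18 over 0.1, 12 best with their own number), a hint from the data that the numbers mark cows in the intestine. Sums by seed, planned as another summary, were not run because no mature sequences were at hand.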
